A study of Mus musculus with 6 samples.

Results

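The genes described here mark the mesangial cells, the pericyte-like mural cells and the smooth muscle cells in and next to the kidney glomerulus. They are 32 mouse genes listed by symbol and matched by NCBI Gene identifier. All 32 are among the 27179 features of the table, and 31 of them reached a mean of at least 10 normalised counts over the 6 libraries, as did 13946 features in all. RNA was taken from whole glomeruli that were isolated with magnetic beads from male mice aged 9 weeks, on a background given as C57BL/6 mixed. The WT group (WT-1 to WT-3) had the genotype Parva-fl/fl, with no Cre named. The KO group (KO-1 to KO-3) had the same floxed alleles and a Cre transgene driven by a promoter that is active in podocytes. Mild proteinuria is given for the mice in the protocol that all 6 samples share. The comparison addresses the glomerular RNA after deletion, in podocytes, of Parva, which encodes the actin-binding adhesion protein alpha-parvin. By this design Cre is aimed at podocytes and not at mesangial, mural or smooth muscle cells. Some of the genes described here are active in other cells too. RNA of whole glomeruli does not show in which cells a change arose.

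Mesangial cells hold the capillary loops of the glomerulus together and share a lineage with pericytes and vascular smooth muscle. They depend on platelet-derived growth factor that endothelial cells release. Smooth muscle of the arterioles builds its contractile apparatus from smooth muscle actin, smooth muscle myosin and their binding proteins. Many of these genes are switched on by serum response factor (SRF) and its cofactors, which bind the CArG box, and by TEAD factors, which bind the element CATTCC. Injured mesangial cells are known to take up part of this contractile programme.

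The sequence before the gene start is shown for the 3 genes with a strict CArG box, for 2 contractile genes with CATTCC and for Gata3 as a contrast. These were chosen after the matches were seen. The CArG box was searched as its standard consensus on both strands in the 250 bases before each gene start of the RefSeq promoter table (GRCm38.p6, the mm10 assembly), and CATTCC likewise (GGAATG on the other strand). A looser CArG box, with at most 1 core base other than A or T, was added after the strict search. The table held 26 of the 32 genes, with 33 start windows. The contractile genes Tagln and Myh11 were not among them, so the sequence before their starts was not searched. A strict CArG box lay in the windows of Hopx, Rergl and Fhl1, or 3 of the 26, against 1.62% of the 27025 genes in the table. None of the 6 contractile genes in the table held a strict box, and the loose box was present in Acta2, against 9.78% of all genes. CATTCC lay in Acta2, Lmod1, Cald1 and Smtn, 4 of these 6 contractile genes, against 14.4% of all genes. Of the 9 mesangial genes in the table, none held either form of the CArG box and Art3 held CATTCC. Abcc9 and Mef2c held CATTCC as well, which made 7 of the 26 genes. The 160 bases before the start are printed below with strict or loose CArG boxes and CATTCC in capitals, and with Gata3 as the mesangial gene with the largest difference. A match is a description of the letters and not a measured binding site.
Acta2 (chr19:34255374-34255533, minus strand): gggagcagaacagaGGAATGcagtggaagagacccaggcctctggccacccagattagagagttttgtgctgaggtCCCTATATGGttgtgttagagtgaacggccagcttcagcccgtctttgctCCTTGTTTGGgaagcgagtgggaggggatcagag
Lmod1 (chr1:135324653-135324812, plus strand): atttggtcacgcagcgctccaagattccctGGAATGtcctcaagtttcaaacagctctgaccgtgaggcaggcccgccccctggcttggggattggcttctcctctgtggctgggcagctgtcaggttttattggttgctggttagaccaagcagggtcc
Hopx (chr5:77115124-77115283, minus strand): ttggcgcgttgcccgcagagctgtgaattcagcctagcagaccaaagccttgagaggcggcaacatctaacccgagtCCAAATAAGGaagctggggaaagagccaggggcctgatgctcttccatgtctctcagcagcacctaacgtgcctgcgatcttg
Rergl (chr6:139501910-139502069, minus strand): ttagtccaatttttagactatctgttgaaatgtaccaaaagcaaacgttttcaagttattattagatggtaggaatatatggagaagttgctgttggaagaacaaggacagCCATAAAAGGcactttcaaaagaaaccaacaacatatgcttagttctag
Fhl1 (chrX:56779523-56779682, plus strand): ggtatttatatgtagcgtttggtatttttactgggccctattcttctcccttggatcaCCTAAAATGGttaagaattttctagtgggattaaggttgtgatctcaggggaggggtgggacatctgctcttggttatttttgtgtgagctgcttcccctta
Gata3 (chr2:9878601-9878760, minus strand): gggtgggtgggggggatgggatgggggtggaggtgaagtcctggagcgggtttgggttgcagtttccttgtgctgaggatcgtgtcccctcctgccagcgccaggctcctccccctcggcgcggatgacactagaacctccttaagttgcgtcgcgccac
In Acta2 the loose CArG boxes began 84 and 34 bases before the start, and GGAATG began 146 bases before it. The strict boxes began 83 bases before the start in Hopx, 49 in Rergl and 102 in Fhl1. GGAATG began 130 bases before the start of Lmod1. The genes with a strict box did not share a direction in the expression data below, since Hopx and Rergl were lower and Fhl1 higher in KO.

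The libraries held 11886828 to 20552984 whole reads, as recovered from the normalised counts. Parva checked the labels, with WT values of 6585, 7520 and 7890 normalised counts against KO values of 2288, 2338 and 1942. Here and below, the 3 values of a group stand in the order of the library numbers. The podocyte gene Podxl was at 53537 or more in every library. In 4 libraries (WT-1, WT-2, WT-3 and KO-1), 17.4% to 32.4% of the reads came from a set of 10 genes, whose highest library exceeded the next by a factor of 30 or more. None of the 32 genes is among these. Proximal tubule markers were higher in KO. The summed normalised counts of 24 such genes, none at 0, ran from 135807 to 300937 in WT and from 346810 to 523276 in KO. WT-1 had the most among WT. Their mean log2 level was entered as a covariate in an alternative fit, and its values are given for the members called and for the group medians. That mean ran from 11.397 to 12.585 in WT and from 12.945 to 13.506 in KO, without overlap. The fit therefore cannot reliably tell tubule signal from genotype, and a call lost in it cannot be assigned to either.

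Genes that fell in KO glomeruli were found among the mesangial genes (5 of 12), the mural genes (1 of 4), the muscle regulators (6 of 8) and the tested contractile genes (1 of 7), and the genes that rose were Tagln and Fhl1. Of the 31 genes tested, 13 fell, 2 rose and 16 did not pass the threshold of an adjusted p of 0.05 in limma, a linear model of log2 levels fitted over all genes. Over all 13946 genes tested, 8.58% were called lower and 13.5% higher. The median log2 fold change was -0.57 over the 31 genes and -0.006 over all genes. All 3 KO libraries were below all 3 WT libraries in 15 of the 31 genes, against 21.9% of all genes, and above them in 3, against 23.2%. RNA of whole glomeruli cannot tell fewer cells of a type from less RNA per cell. The endothelial markers moved with these genes: 19 of 24 tested fell, with a median of -0.67. Renin cell markers (3 of 5 tested fell, median -1.12) and podocyte markers (8 of 20 fell, median -0.42) were mostly lower too. Positive changes were seen in 3 podocyte markers and in 1 renin cell marker. The latter was Sfrp1 at 1.41 (limma adjusted p = 0.0836), with all KO libraries above all WT libraries. All 18 distal tubule markers had positive changes (4 rose, median 1.34). Among 13 tested markers of parietal cells, 2 fell and 5 rose. The part of these cell types in the results was not tested. When the libraries were scaled to equal endothelial marker levels, the median of all genes was 0.625 and that of the 31 genes 0.063. None of the 31 was called lower (1 at an unadjusted p below 0.05) and 8 were called higher. Over all 13946 genes, that fit called 45 lower and 8341 higher. With the tubule covariate the median of the 31 genes was -0.17. Limma then called none of the 31, nor any other gene (5 of the 31 lower and 0 higher at an unadjusted p below 0.05).

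**Figure D1:**
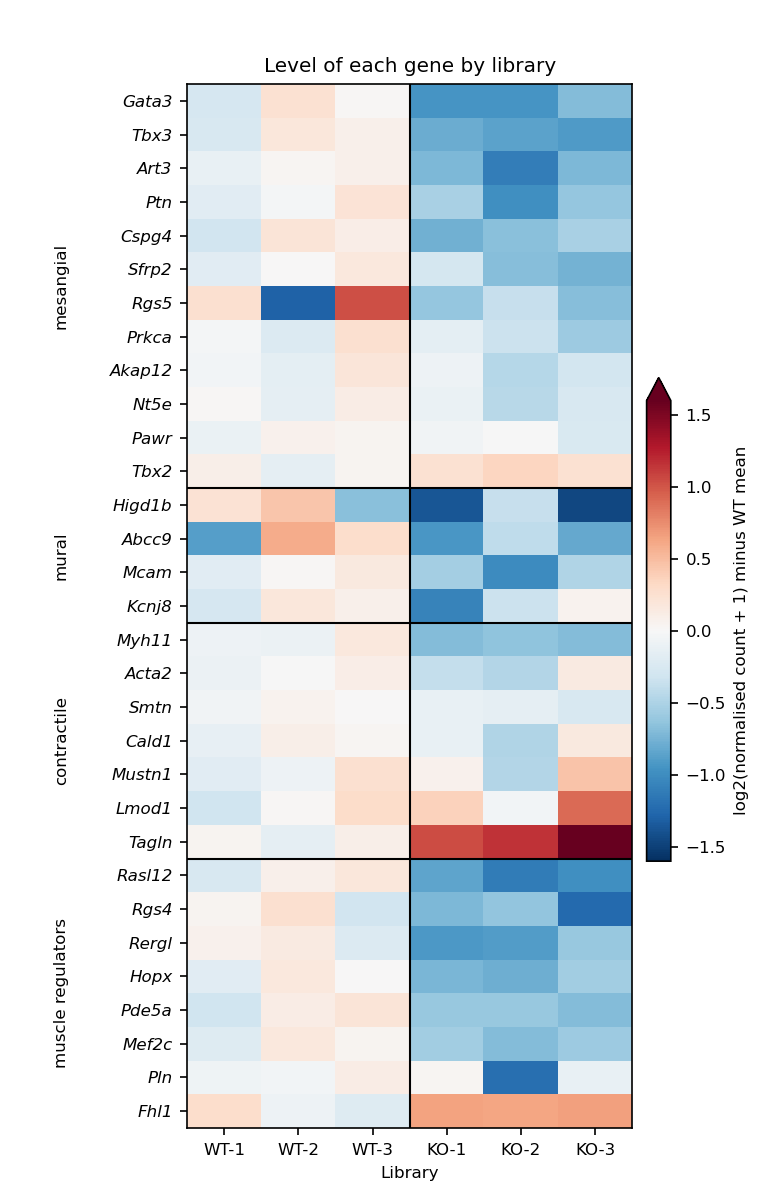
Heat map of the 31 tested genes (rows, by group) in the 6 libraries (columns); colour is log2(normalised count + 1) minus the mean of the 3 WT libraries, with values past 1.6 drawn in the end colour. The KO columns are blue in most mesangial, mural and regulatory rows on the deposited scaling, and red in the rows of Tagln, Fhl1 and Tbx2.

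Among the 12 mesangial genes, 5 fell (Gata3, Tbx3, Art3, Ptn and Cspg4), none rose and 7 did not pass, with a median log2 fold change of -0.56. Gata3 encodes a zinc finger transcription factor found in mesangial cells. Its WT values were 2745, 3924 and 3353 normalised counts, and its KO values 1717, 1725 and 2048. Every KO library was below every WT library, and the means were 3341 ± 590 and 1830 ± 189 (SD, n = 3). The log2 fold change was -0.86 (SE 0.15, limma adjusted p = 0.0286). Gata3 overlaps the non-coding gene 4930412O13Rik, and without a stated strand setting their reads cannot be told apart. That gene stood at 169, 183 and 244 in WT and at 138, 110 and 104 in KO, far fewer than Gata3. It fell as well (log2 fold change -0.75, limma adjusted p = 0.0357). Gata3 also overlaps the non-coding gene 9230102O04Rik, at 34.8, 19.8 and 23 in WT and 51.4, 37.9 and 35.2 in KO. The change of 9230102O04Rik was 0.68 and did not pass (limma adjusted p = 0.134).

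The T-box repressors Tbx3 and Tbx2 went different ways. Tbx3 stood at 2176, 2943 and 2750 in WT and at 1495, 1442 and 1385 in KO. The change was -0.85 on the log2 scale (SE 0.12, limma adjusted p = 0.0286). The KO libraries lay close together and below all WT libraries. Tbx2, its close relative, stood at 743, 631 and 715 in WT and at 827, 885 and 821 in KO. All KO libraries were above all WT libraries, but the difference of 0.28 (SE 0.09) missed the threshold (limma adjusted p = 0.0711). The difference between the 2 changes was not tested.

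Art3, of the family of ADP-ribosyltransferases on the cell surface, had 1437, 1584 and 1649 normalised counts in WT and 947, 724 and 941 in KO. The change was -0.85 on the log2 scale (SE 0.13, limma adjusted p = 0.0286). Its span also holds Cxcl10, which stood at 299 in KO-3 and at most at 72.6 elsewhere. Art3 itself was at nearly the same level in KO-1 and KO-3, at 947 and 941. Whether Art3 and Cxcl10 share reads was not tested. Ptn encodes pleiotrophin, a heparin-binding growth factor, and had 3909, 4348 and 5160 in WT and 3099, 2248 and 2895 in KO. The change was -0.71 on the log2 scale (SE 0.16, limma adjusted p = 0.0302). Cspg4, the NG2 proteoglycan of pericytes and mesangial cells, had 845, 1201 and 1123 in WT and 615, 658 and 728 in KO. The change was -0.65 on the log2 scale (SE 0.15, limma adjusted p = 0.0304). Neither gene overlapped between the groups.

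Sfrp2, a secreted modulator of Wnt signals, was the most abundant of the 32 genes per length of exon. It had 12553, 14333 and 15951 normalised counts in WT and 11736, 8826 and 8416 in KO. The groups did not overlap, yet the change of -0.57 (SE 0.18) missed the threshold (limma adjusted p = 0.0548). KO-1 lay nearest to WT, and without it the change was -0.72 (limma adjusted p = 0.0445). Without WT-1 it was -0.66 (limma adjusted p = 0.0301). Without WT-2, WT-3, KO-2 or KO-3 it lay between -0.57 and -0.48 and did not pass (limma adjusted p from 0.143 to 0.172).

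The other 5 mesangial genes overlapped between the groups. Their log2 fold changes were -0.56 for Rgs5, -0.36 for Prkca, -0.27 for Akap12, -0.27 for Nt5e and -0.10 for Pawr, with limma adjusted p from 0.132 to 0.483. Rgs5, a regulator of G protein signalling in pericytes, was uneven in WT, at 222, 75.2 and 381, against 120, 143 and 116 in KO. WT-2 was the lowest and WT-3 the highest of all 6 libraries, so its change ran from -1.20 without WT-2 to -0.04 without WT-3. Nt5e, which makes adenosine from AMP outside the cell, had a WT mean of 3341 ± 304 and a KO mean of 2779 ± 330 (SD, n = 3). Prkca (protein kinase C alpha), the scaffold gene Akap12 and Pawr, a gene of cell death, are also active in other glomerular cells.

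With endothelial markers scaled to equal levels, the median of the mesangial genes was 0.069. None of them was called lower (0 at an unadjusted p below 0.05), against 45 of all 13946 genes. With the mean of the proximal tubule markers as covariate, the median was -0.20, and none was called (2 lower at an unadjusted p below 0.05). Gata3 then stood at -0.48, Tbx3 at -0.41, Art3 at -0.55, Ptn at -0.25 and Cspg4 at -0.24, all negative and none past the threshold. With endothelial markers set equal, the same 5 genes lay between -0.22 (Gata3) and -0.014 (Cspg4).

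**Figure D2:**
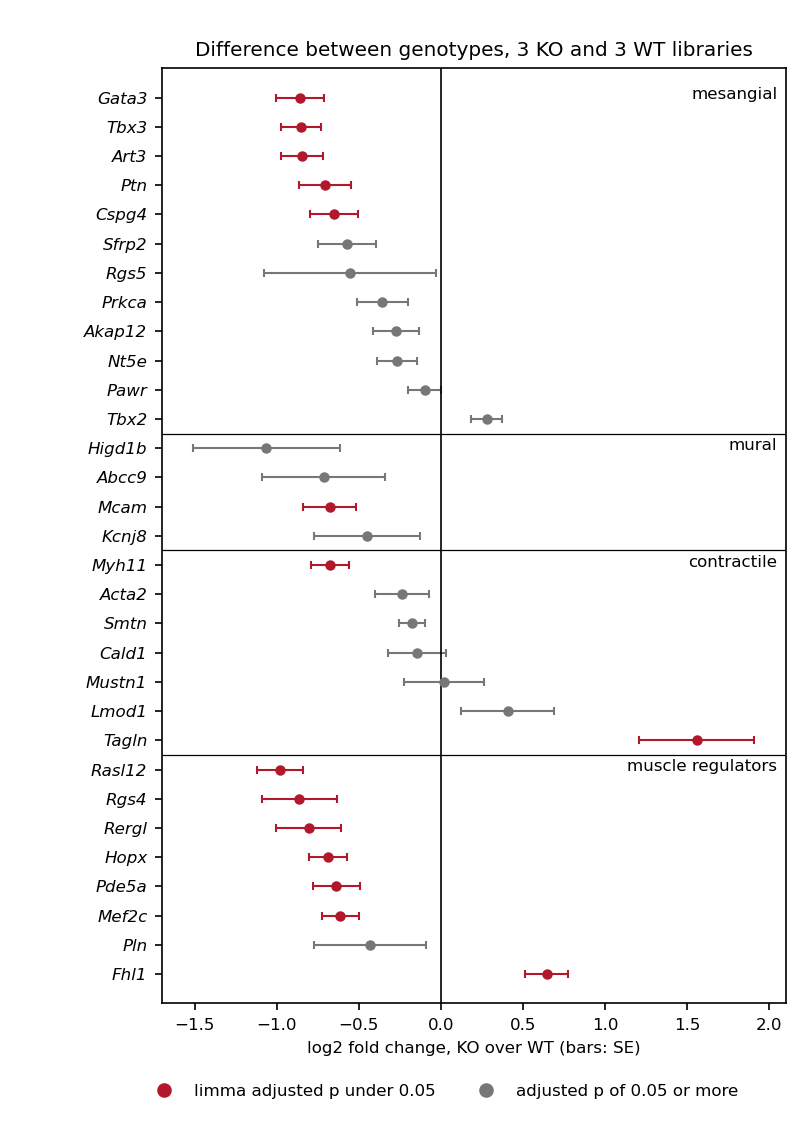
Log2 fold change of KO over WT with its SE (limma, 3 libraries a group, deposited scaling) for the 31 tested genes, by group; red marks an adjusted p under 0.05. The 13 genes called lower lie between -0.98 and -0.61, and the 2 called higher are Fhl1 at 0.64 and Tagln at 1.56.

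Of the 4 mural genes, Mcam fell and the other 3 did not pass. Mcam encodes a cell adhesion molecule of pericytes, smooth muscle and endothelium. It had 2209, 2528 and 2785 normalised counts in WT and 1705, 1243 and 1788 in KO, with no overlap (-0.68 on the log2 scale, SE 0.16, limma adjusted p = 0.031). The change of Mcam was -0.04 with endothelial markers set equal (limma adjusted p = 0.798) and -0.27 with the tubule covariate. The median of the 4 mural genes was -0.70, against -0.06 and -0.35 in these fits. The remaining 3 are markers of brain and heart pericytes and had at most 201 normalised counts in any library. Kcnj8 and Abcc9, the pore and the sulfonylurea receptor of a potassium channel of mural cells, had WT means of 51.7 ± 8.33 and 144 ± 66.1, and KO means of 39.1 ± 14.7 and 81.2 ± 16.2 (SD, n = 3). Abcc9 was at 71.7 in WT-1, close to the KO libraries at 69.1, 99.6 and 74.8, whereas WT-2 had 201 and WT-3 had 160. Without WT-1 the change of Abcc9 was -1.15 (limma adjusted p = 0.00845), against -0.72 with all libraries (limma adjusted p = 0.195). Without any other single library it lay between -0.87 and -0.42 and did not pass (limma adjusted p from 0.234 to 0.482). With the tubule covariate it was 0.49. Higd1b rested on 8 to 37 whole reads per library, and its change of -1.06 (SE 0.45) did not pass (limma adjusted p = 0.123). Its span overlaps Eftud2, a gene with 669 or more normalised counts in each library.

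The 8 contractile genes did not move together. Tagln rose, Myh11 fell, and Acta2, Lmod1, Smtn, Cald1 and Mustn1 did not pass, with a median log2 fold change of -0.15 over the 7 tested. This median was 0.49 with endothelial markers set equal and 0.12 with the tubule covariate. Cnn1, calponin of smooth muscle, stood at 8.69, 3.96 and 3.29 in WT and at 2.66, 5.41 and 9.07 in KO, which is 3 to 8 whole reads, and was not tested.

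Tagln encodes transgelin, an actin-binding protein that appears early in the contractile programme. Its WT values were 629, 551 and 650 normalised counts, and its KO values 1254, 1359 and 3386 (log2 fold change 1.56, SE 0.35, limma adjusted p = 0.0304). Every KO library was above every WT library, and KO-3 was far above the other 2. Without KO-3 the change was 1.10 (limma adjusted p = 0.0579), in a fit that called 3 of all 13946 genes. The call was lost as well without WT-2, WT-3 or KO-2, at changes from 1.49 to 1.76 (limma adjusted p from 0.106 to 0.11). With endothelial markers set equal the change was 2.19 (limma adjusted p = 0.00564), and with the tubule covariate 1.23 (limma adjusted p = 0.9997). The span of Tagln overlaps that of Pcsk7, which stood at 495, 426 and 458 in WT and at 524, 561 and 438 in KO. For Pcsk7, KO-3 was the lowest of the KO libraries.

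Myh11, the heavy chain of smooth muscle myosin, marks differentiated smooth muscle. It had 309, 307 and 368 normalised counts in WT and 201, 209 and 202 in KO. The change was -0.68 on the log2 scale (SE 0.12, limma adjusted p = 0.0286). KO-3, the library with the most Tagln, lay between the other KO libraries in Myh11. The change of Myh11 was -0.04 with endothelial markers set equal and -0.56 with the tubule covariate. Smtn, smoothelin of contractile smooth muscle, had 1334, 1444 and 1389 in WT and 1274, 1253 and 1160 in KO. These groups did not overlap, but the change of -0.18 (SE 0.08) did not pass (limma adjusted p = 0.151).

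Several contractile genes were highest in KO-3. Acta2, smooth muscle actin, had 612, 645 and 698 normalised counts in WT and 498, 470 and 718 in KO. Lmod1, a nucleator of actin filaments, had 55.4, 70.3 and 85.6 in WT and 89.5, 67.1 and 130 in KO. Both had KO-3 above all other libraries. For Acta2 the other KO libraries were below the WT range, and for Lmod1 KO-1 was above it and KO-2 within it. Cald1, the actin-binding caldesmon that non-muscle cells express as well, had 8063, 9431 and 8997 in WT and 8144, 6316 and 9809 in KO. Mustn1, a small nuclear protein of muscle and skeleton, had 181, 195 and 245 in WT and 215, 148 and 281 in KO. In all, 5 of the 7 tested contractile genes (Tagln, Acta2, Lmod1, Cald1 and Mustn1) had KO-3 as the highest of the 6 libraries, against none of the 12 mesangial genes and 18.2% of all genes. In a list of 31 other contractile genes, KO-3 was the highest of the 6 libraries in 6 (19.4%), near the share of all genes, and the highest of the KO libraries in 22 (71.0%), against 33.8% of all genes.

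**Figure D3:**
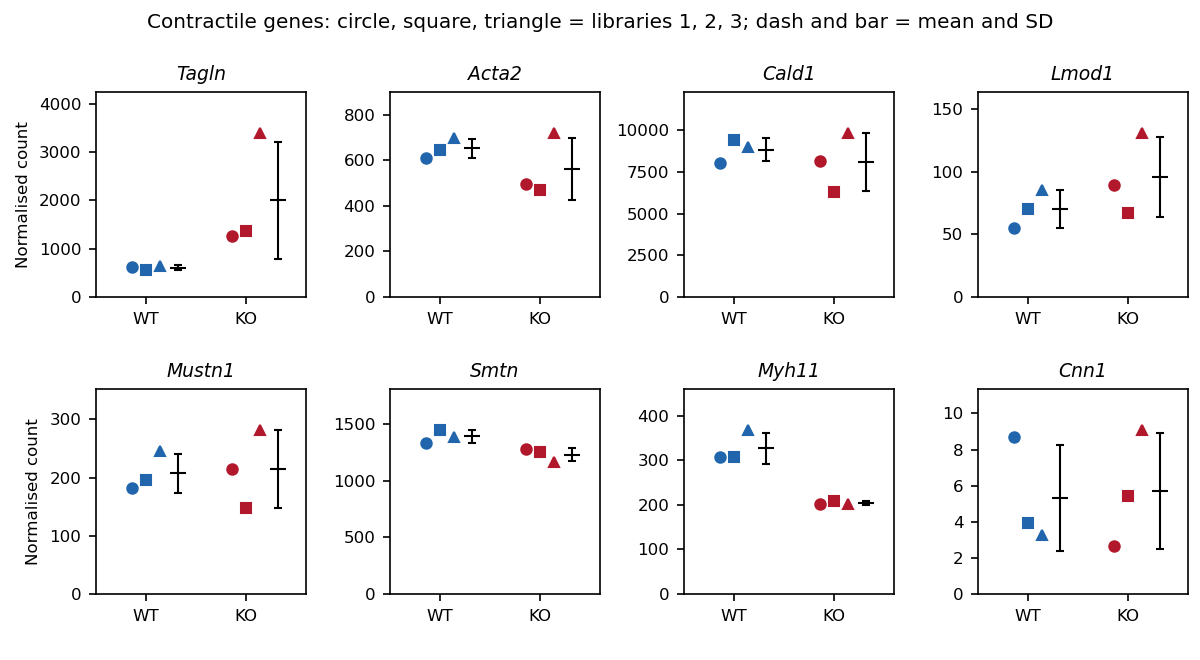
Normalised counts of the 8 contractile genes in each library (linear axes from 0; circles, squares and triangles are libraries 1, 2 and 3 of WT in blue and KO in red; black marks give mean and SD, n = 3). The triangle of KO-3 tops the panels of Tagln, Acta2, Cald1, Lmod1, Mustn1 and the untested Cnn1, but not those of Smtn and Myh11.

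Leukocyte markers were also highest in KO-3. The summed normalised counts of 20 such genes were 1618 to 2472 in WT, 2525 in KO-1, 1687 in KO-2 and 6711 in KO-3, with Cd3e and Cd3g at 0 in KO-1 alone. Cd74, a chain of antigen presentation, stood at 3089 in KO-3 and at most at 608 elsewhere. Fibroblast markers, 15 genes, summed to 15402 to 18712 in WT and to 11532 to 14501 in KO, with KO-3 again the highest of KO. On the mean log2 level of the 10 tested, KO-3 was the highest of the 6 libraries, at 8.858. WT then ran from 8.002 to 8.623, with KO-1 at 7.769 and KO-2 at 7.557. At least 1 of Lum, Dpt, Clec3b and Mfap5 was at 0 in every library except KO-3, but these genes had at most 3.40 normalised counts anywhere. Of the 10 tested, 2 fell and 0 rose. Pdgfra stood at 654 in KO-3 against 1169 to 1433 in WT, and Pi16 at 2923 against 5167 to 5971 (limma adjusted p = 0.0262 for each). The part of leukocytes and fibroblasts in the contractile values of KO-3 was not tested.

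The set of mesangial genes against contractile genes gave a difference of medians of -0.42 on the log2 scale of fold changes. It lay between -0.56 and -0.23 when single libraries were left out, and was -0.33 with the tubule covariate and -0.42 with endothelial markers set equal. The same contrast within each library did not separate the groups. The median mesangial log2 level minus the median contractile log2 level was 1.16, 1.38 and 1.31 in the WT libraries, against 1.26, 1.28 and 0.47 in the KO libraries. KO-1 and KO-2 lay within the WT range and KO-3 far below it. No test was run on this contrast, because the genes were chosen with earlier results of these data known.

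**Figure D4:**
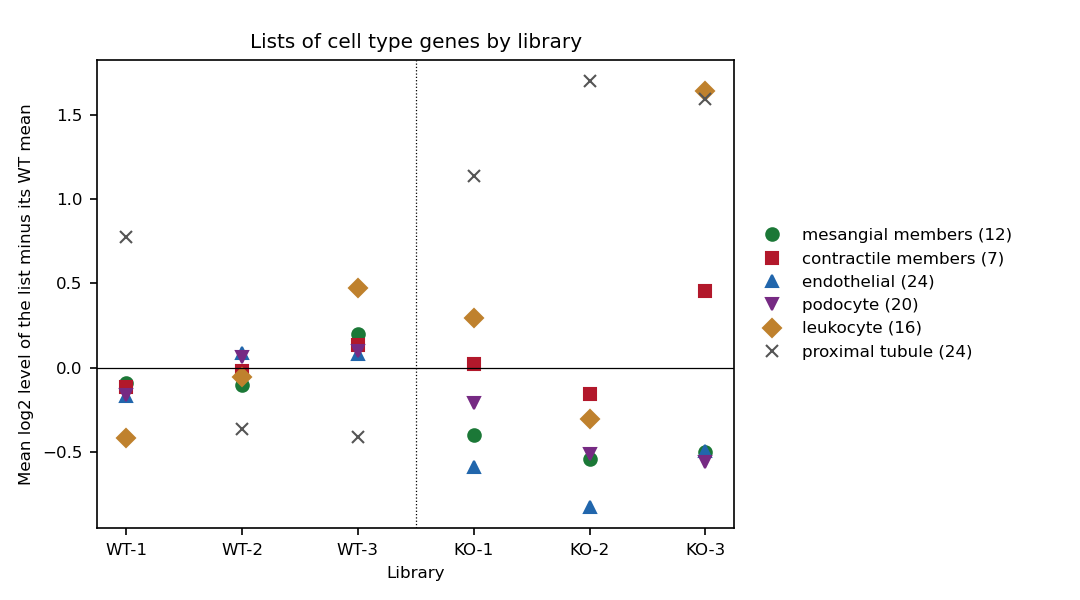
Mean log2 level of 6 gene lists in each library minus the mean of the WT libraries (number of genes in brackets, deposited scaling). The mesangial, endothelial and podocyte lists lie below their WT mean in all KO libraries, the proximal tubule list lies above it, and the contractile and leukocyte lists are highest in KO-3.

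Of the 8 regulators and signalling genes of muscle, 6 fell, Fhl1 rose and Pln did not pass, with a median of -0.66. This median was -0.03 with endothelial markers set equal and -0.33 with the tubule covariate. Rasl12, a small RAS-like GTPase, had 697, 885 and 945 normalised counts in WT and 465, 384 and 422 in KO. The change was -0.98 on the log2 scale (SE 0.14, limma adjusted p = 0.0286). Rergl, another RAS-like gene of smooth muscle, had 85.8, 90.1 and 70 in WT and 42.5, 43.3 and 53.3 in KO. The change was -0.81 on the log2 scale (SE 0.20, limma adjusted p = 0.0336). The groups did not overlap in either gene, and the changes of Rasl12 and Rergl were -0.35 and -0.18 with endothelial markers set equal and -0.46 and -0.99 with the tubule covariate. The span of Rasl12 overlaps that of Slc51b, which had 173, 74.2 and 53.5 in WT and 140, 251 and 243 in KO.

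Rgs4, which like Rgs5 shortens G protein signals, had 153, 179 and 121 in WT and 90.4, 96.4 and 62.4 in KO. The change was -0.86 on the log2 scale (SE 0.23, limma adjusted p = 0.0386). Pde5a, the phosphodiesterase that breaks down cyclic GMP, had 596, 807 and 854 in WT and 487, 486 and 458 in KO. The change was -0.64 on the log2 scale (SE 0.14, limma adjusted p = 0.0304). These signalling genes did not overlap between the groups. Pde5a was at -0.004 relative to the endothelial markers, whereas Rgs4 was at -0.23. Pde5a was at -0.12 and Rgs4 at -0.88 with the tubule covariate. Gucy1a1 and Gucy1b1, which are not members and encode the subunits of the nitric oxide receptor that makes cyclic GMP, changed by -1.003 and -0.61 (limma adjusted p = 0.0286 for each).

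Mef2c, a transcription factor of muscle and endothelium, had 819, 1057 and 970 in WT and 639, 584 and 628 in KO. The change was -0.61 on the log2 scale (SE 0.11, limma adjusted p = 0.0286). Hopx, a small homeodomain protein that acts through SRF, had 1555, 1991 and 1780 in WT and 1060, 1031 and 1204 in KO. The change was -0.69 on the log2 scale (SE 0.12, limma adjusted p = 0.0286). Neither overlapped between the groups. Both were near 0 relative to endothelial markers, Mef2c at 0.022 and Hopx at -0.05. They were at -0.25 and -0.42 with the tubule covariate. Pln, phospholamban, which restrains the calcium pump of the muscle reticulum, was at 58.7, 59.4 and 66.7 in WT and at 62.9, 26 and 56.7 in KO. KO-2 alone stood apart, and without it the change was -0.04. The span of Pln overlaps that of Cep85l, which had a similar level, at 72.8, 57.4 and 91.4 in WT and 59.4, 48.7 and 39.7 in KO. Reads of Pln and Cep85l may therefore be shared.

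Fhl1, a LIM-domain protein of muscle and of adhesion sites, rose. It had 1538, 1191 and 1093 normalised counts in WT and 1969, 1954 and 1984 in KO, with no overlap (0.64 on the log2 scale, SE 0.13, limma adjusted p = 0.0286). The KO libraries were nearly equal, and among WT the highest was WT-1, which also had the most proximal tubule signal. With the tubule covariate the change was 0.19 (limma adjusted p = 0.9997), and with endothelial markers set equal 1.28 (limma adjusted p = 0.00564).

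Per kilobase of exon, in normalised counts of the WT libraries, the 4 highest genes were Sfrp2 at 6632 ± 789, Ptn at 1303 ± 185, Hopx at 1171 ± 144 and Gata3 at 840 ± 148 (SD, n = 3). Ptn and Hopx did not differ beyond their spread. Among the contractile genes, Cald1 was highest on this scale, at 733 ± 58.1, followed by Smtn at 317 ± 12.6, Tagln at 307 ± 26.2 and Acta2 at 297 ± 19.8. Cald1 and Gata3 did not differ beyond their spread, nor did Smtn, Tagln and Acta2 among themselves. Several mesangial genes lay below these, among them Prkca at 149 ± 25.2, Cspg4 at 88.5 ± 15.7 and Rgs5 at 49.7 ± 33.7. Myh11 at 43.1 ± 4.58, Lmod1 at 17.8 ± 3.82 and Cnn1 at 1.94 ± 1.08 had lower means still. Rgs5, with its wide spread, did not differ from Myh11 or Lmod1 beyond it. The potassium channel genes Kcnj8 at 20.3 ± 3.27 and Abcc9 at 17.2 ± 7.89 were in the range of Lmod1.

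In a list of 18 further mesangial and stromal genes, 11 fell and Angpt1 rose (0.93, limma adjusted p = 0.0448), with a median of -0.58. Pdgfrb, the receptor for platelet-derived growth factor, changed by -1.02, the integrin chain Itga8 by -0.79 and desmin (Des) by -0.61 (limma adjusted p = 0.0286, 0.0286 and 0.0321). The receptors Ednra for endothelin, Agtr1a for angiotensin and Notch3 changed by -0.91, -0.66 and -0.55, and the nuclear receptor Nr2f1 by -1.22 (limma adjusted p = 0.0286 for each). In a list of 31 tested contractile and actin-binding genes, 5 fell, 2 rose and 24 were without a call, with a median of -0.33. Over all 13946 genes, 10861 were without a call. Among those that fell are the pair of nitric oxide receptor subunits, Ppp1r12a at -0.52, a targeting subunit of myosin phosphatase, and Vcl at -0.49 (vinculin). Csrp2, a LIM protein of smooth muscle, rose, from 1010 ± 225 to 1769 ± 286 (SD, n = 3; log2 fold change 0.82, SE 0.18, limma adjusted p = 0.0303). With the tubule covariate the change of Csrp2 was 0.061 and did not pass. Tgm2, a transglutaminase, rose by 0.83 (limma adjusted p = 0.0485). The myosin light chain Myl9, its kinase Mylk and the tropomyosins Tpm1 and Tpm2 did not pass, at -0.39, -0.40, 0.05 and -0.49.

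The tested factors that act on CArG boxes did not pass. Srf had 830 ± 61.5 normalised counts in WT and 728 ± 75.3 in KO (SD, n = 3; log2 fold change -0.19, limma adjusted p = 0.227), and its cofactors Mrtfa and Mrtfb were at -0.10 and -0.36 (limma adjusted p = 0.615 and 0.0551). Myocd, the cofactor specific to muscle, stood between 1.13 and 5.32 in all libraries and was not tested. Of 13 tested factors, 4 fell and none rose. These were Klf4 at -0.87, which restrains smooth muscle differentiation, Gata2 at -0.40, and the Notch targets Hey1 at -0.85 and Heyl at -0.74 (limma adjusted p = 0.0286, 0.0325, 0.0367 and 0.0476). Klf4, Gata2 and Hey1 are also active in endothelial cells, whose markers fell in the same libraries. Whether the changes of these factors are related to that was not tested.

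**Figure D5:**
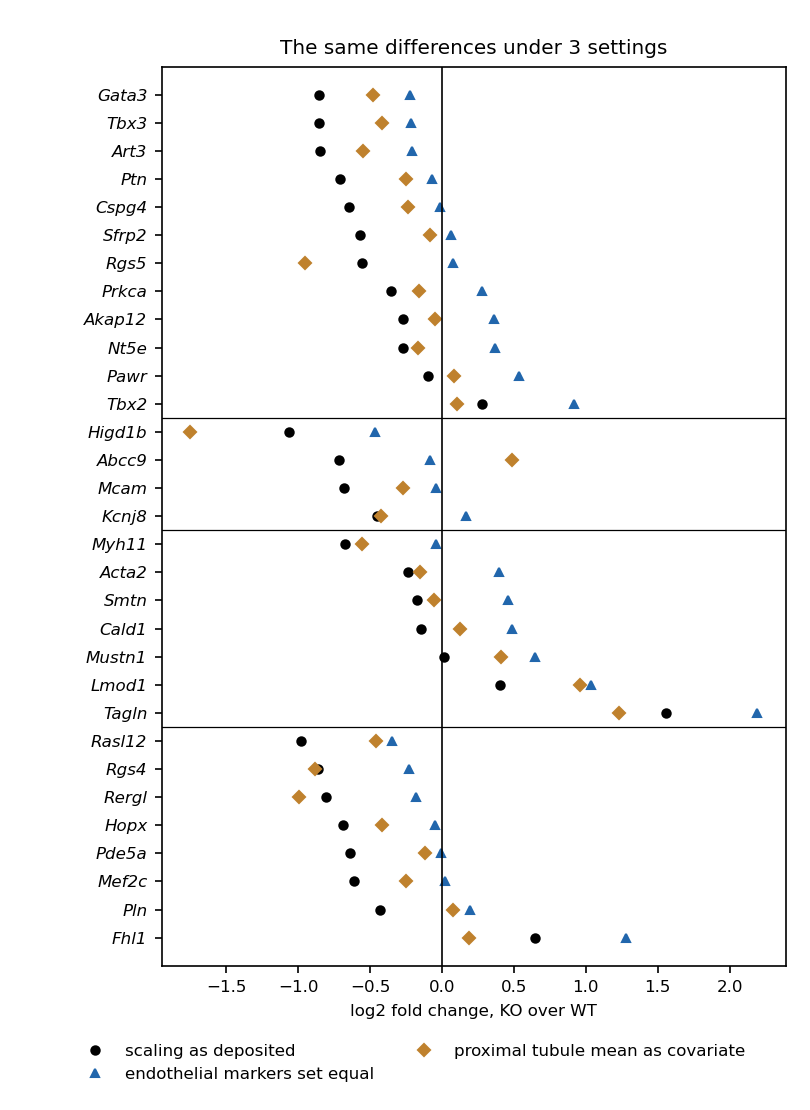
Log2 fold change of KO over WT for the 31 tested genes on the deposited scaling (black), with endothelial markers set equal (blue) and after the tubule marker mean was entered as a covariate (ochre). With endothelial markers set equal, the signs of 12 genes flip and Tagln, Fhl1 and Tbx2 lie at 2.19, 1.28 and 0.92; with the covariate, 4 genes flip.

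The calls of single genes were lost when any of 4 libraries was left out. Without WT-2, WT-3, KO-2 or KO-3, limma called none of the 31 genes, with 14 to 17 lower and 2 to 3 higher at an unadjusted p below 0.05. Of all 13946 genes, limma then called 1, 0, 4 and 3 in turn. It called 14 of the 31 lower without WT-1 and 10 lower without KO-1, against 1695 and 781 of all genes. With all libraries, edgeR called 13 lower and 2 higher, against 8.25% and 12.1% of all genes. DESeq2 called 14 lower and 2 higher, against 10.5% and 16.8% of all genes. The directions of the 15 called genes held in each of these fits.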

How the data were processed

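RNA-seq libraries of glomeruli from 3 WT and 3 KO mice were compared. The deposited table holds normalised counts per NCBI Gene identifier, a signal on a scale that the authors set per library. Per the file headers the columns are featureCounts counts, the table's name calls them normalised, and the values are those of reads divided by 1 factor a library. Per the submitters' processing notes the tools included HISAT2 2.1 on mm10, with DESeq2 2.11.40.6, featureCounts 1.6.4, cutadapt 1.16.5 and bcl2fastq 2.19. Strand setting and annotation release: not given in the sources used here, so overlapping genes may share reads.

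All values (100%) were whole multiples of a step per library at a tolerance of 0.01, which gave whole reads. Symbols came from a RefSeq table of GRCm38.p6 (25275 of 27179 identifiers; the other 1904 stayed in the tests unnamed), exon lengths from GENCODE M21. The main test was limma 3.58.1 (R 4.3.3) with a variance trend on log2(normalised count + 1), for genes with a mean of at least 10, two-sided, with Benjamini-Hochberg adjustment over all genes at 0.05. Fold changes on this scale understate low genes. Alternatives were other pseudocounts, scalings, filters and priors, edgeR 4.0.16 (2841 genes called) and DESeq2 1.42.0 (3810 genes called) on the recovered reads, a replicate block, the mean of the proximal tubule markers as covariate, and leaving out each library. Libraries of a group differed by more than sampling noise, with 23.4 the lowest chi-square per degree of freedom. The labels and design text give 3 mice per group.

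The members and lists were chosen with earlier results of these data known. All members are named, as are Parva, up to 6 called genes with the smallest p in each list of related genes, and a fixed set (Pdgfrb, Itga8, Des, Srf, Myocd, Mrtfa, Mrtfb, Myl9, Mylk, Tpm1 and Tpm2). The 2 highest genes in lists of other cell types are named where used. Genes overlapping a member, fibroblast markers at 0, Pdgfra, Cd3e, Cd3g, Angpt1 and Tgm2 were added after their values were seen. Some named genes are not reported here. On counts simulated for KO against WT over 13946 genes, limma found 56% of the 100 genes set to change 2-fold and 89% of the 100 set to change 4-fold. It made 11 false calls.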

Additional observations from a re-analysis of the deposited data

How the results depend on the processing

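Pseudocounts of 0.5 and 5, TMM scaling, a minimum mean of 1, no filter and edgeR kept each of the 31 genes on its side of the threshold. Upper quartile scaling, a minimum mean of 50, a robust prior and DESeq2 also called Sfrp2 and changed no other call among the members tested. The minimum mean of 50 left 29 of the 31. The other settings moved counts. Given as genes lower and higher in KO, the counts with the deposited scaling were 13 and 2 of the members, 5 lower of the mesangial genes, 1 and 1 of the contractile genes, and 1196 and 1889 of all genes. With endothelial markers set equal they were 0 and 8, 0 lower, 0 and 5, and 45 and 8341. In limma without trend they were 0 throughout apart from 1 gene higher among all genes (15 and 3 members at an unadjusted p below 0.05). With the tubule covariate all were 0 (5 and 0 members at an unadjusted p below 0.05). With a replicate block all were 0 as well (15 and 2 members at an unadjusted p below 0.05). The labels do not say whether the numbers pair the mice. Deviations of same-numbered libraries from their group means correlated at -0.23, -0.19 and -0.01, and no library correlated best with its own number. Deviations within groups of 3 libraries are tied to each other, so these values cannot exclude a pairing. Without each library in turn, the members called ran from 0 to 14 lower and from 0 to 2 higher, mesangial genes from 0 to 6 lower, contractile genes from 0 to 1 in each direction, and all genes from 0 to 1695 lower and from 0 to 2599 higher. A fit without 1 library leaves 2 in that group. The cause of these shifts was not tested.

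Signs turned as follows, among called genes for Mef2c, Notch3, Des, Gucy1b1, Ppp1r12a, Vcl and Gata2. With endothelial markers set equal the log2 fold changes were 0.063 for Sfrp2, 0.37 for Nt5e, 0.36 for Akap12, 0.075 for Rgs5, 0.28 for Prkca, 0.54 for Pawr, 0.40 for Acta2, 0.46 for Smtn, 0.49 for Cald1, 0.17 for Kcnj8, 0.022 for Mef2c, 0.19 for Pln, 0.081 for Notch3, 0.022 for Des, 0.022 for Gucy1b1, 0.11 for Ppp1r12a, 0.14 for Vcl, 0.24 for Myl9, 0.24 for Mylk, 0.15 for Tpm2, 0.23 for Gata2, 0.44 for Srf, 0.53 for Mrtfa and 0.27 for Mrtfb. With the tubule covariate they were 0.085 for Pawr, 0.12 for Cald1, 0.49 for Abcc9, 0.079 for Pln, 0.027 for Mylk and 0.28 for Mrtfa. With upper quartile scaling Mustn1 was at -0.04 and Tpm1 at -0.003. Without single libraries, Cald1 ran from -0.297 to 0.021 (without KO-2), Mrtfa from -0.224 to 0.005 (without WT-3), Mustn1 from -0.20 (without KO-3) to 0.259 and Tpm1 from -0.133 (without KO-3) to 0.213. Depth limits Cnn1 and Higd1b, at 3 to 8 and 8 to 37 whole reads.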
